A study of Mus musculus with 8 samples.

Results

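The chemokine receptors described here are 9 genes, *Ccr1*, *Ccr3*, *Cxcr2*, *Cxcr3*, *Cxcr4*, *Cxcr5*, *Cxcr6*, *Ackr3* and *Ccrl2*, chosen by name from the 26939 genes in the deposited count tables. They were measured by bulk RNA sequencing of tumor-associated macrophages (TAMs) from orthotopic tumors of EO771, a mouse mammary carcinoma line, in female mice aged 8 to 14 weeks. The TAMs were sorted as viable cells that stained for CD45, CD11b and F4/80 but not for Gr-1. Tumors were taken on day 21. Each genotype, WT or *Unc93b1* 3d/3d, gave 2 control libraries and 2 αMARCO libraries, which makes 4 groups and 8 libraries. The αMARCO mice received 100 µg of ED31, a rat IgG1 against the scavenger receptor MARCO, on days 3, 6, 9 and 12. The control mice are labelled as untreated in the sample titles, as PBS in the library names and as control antibody in the study, and which of these they received was not settled here. The 3d allele is a missense mutation of *Unc93b1*, the chaperone that delivers endosomal Toll-like receptors, and 3d/3d mice lack functional TLR3, TLR7 and TLR9 in every cell, not in macrophages alone. Each control library was pooled from 3 mice, and for the αMARCO libraries pooling was not given in the sources used here. For 1 *Unc93b1* 3d/3d control library the genotype field reads 3d/4d, and it was grouped by its title.

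Chemokine receptors are seven-pass membrane proteins that steer leukocytes along gradients of secreted chemokines. Most of them couple to Gi proteins. *Cxcr4* and *Ackr3* both bind CXCL12, but ACKR3 is an atypical receptor that takes up its ligand without G protein signaling. *Ccr1*, *Ccr3* and *Cxcr2* are receptors of inflammatory chemokines, typical of monocytes and macrophages, eosinophils and neutrophils respectively. *Cxcr3*, *Cxcr5* and *Cxcr6* are known mainly from lymphocytes, and *Ccrl2* encodes a receptor-like protein that binds chemerin and does not itself signal to migration.

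The libraries held 15182618 to 26411936 counts, and levels are given in CPM, counts scaled to a common library size. The floor of 3 counts corresponded to 0.114 to 0.198 CPM. Macrophage markers such as *Csf1r*, *Cd68* and *C1qa* were abundant, and their list of 10 genes summed to between 1.03e+04 and 1.58e+04 CPM. The *Unc93b1* 3d/3d αMARCO libraries stood apart from each other. Over 16620 genes, the root mean square log2 difference between the libraries of a group was 1.02 there, compared with 0.44 to 0.58 in the other groups, and 23.7% of genes lay over 2-fold apart, compared with 4.66% to 8.42%. Receptor calls that rest on these libraries are therefore given with and without each of them. Ligand values that rest on them are given with both libraries in. Markers of other leukocytes also differed between groups. The 12 T cell markers, all detected in every library, summed in WT to 129 and 150 CPM for the controls and 12 and 19.4 CPM after αMARCO, and in *Unc93b1* 3d/3d to 25.2 and 12.6 CPM for the controls and 6 and 7.96 CPM after αMARCO. Markers of mature dendritic cells, a list of 7 genes, summed to 872 and 443 CPM in WT control and to between 65.4 and 118 in all other libraries. In bulk samples, fewer cells of a type and less RNA per cell cannot be told apart.

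**Figure D1:**
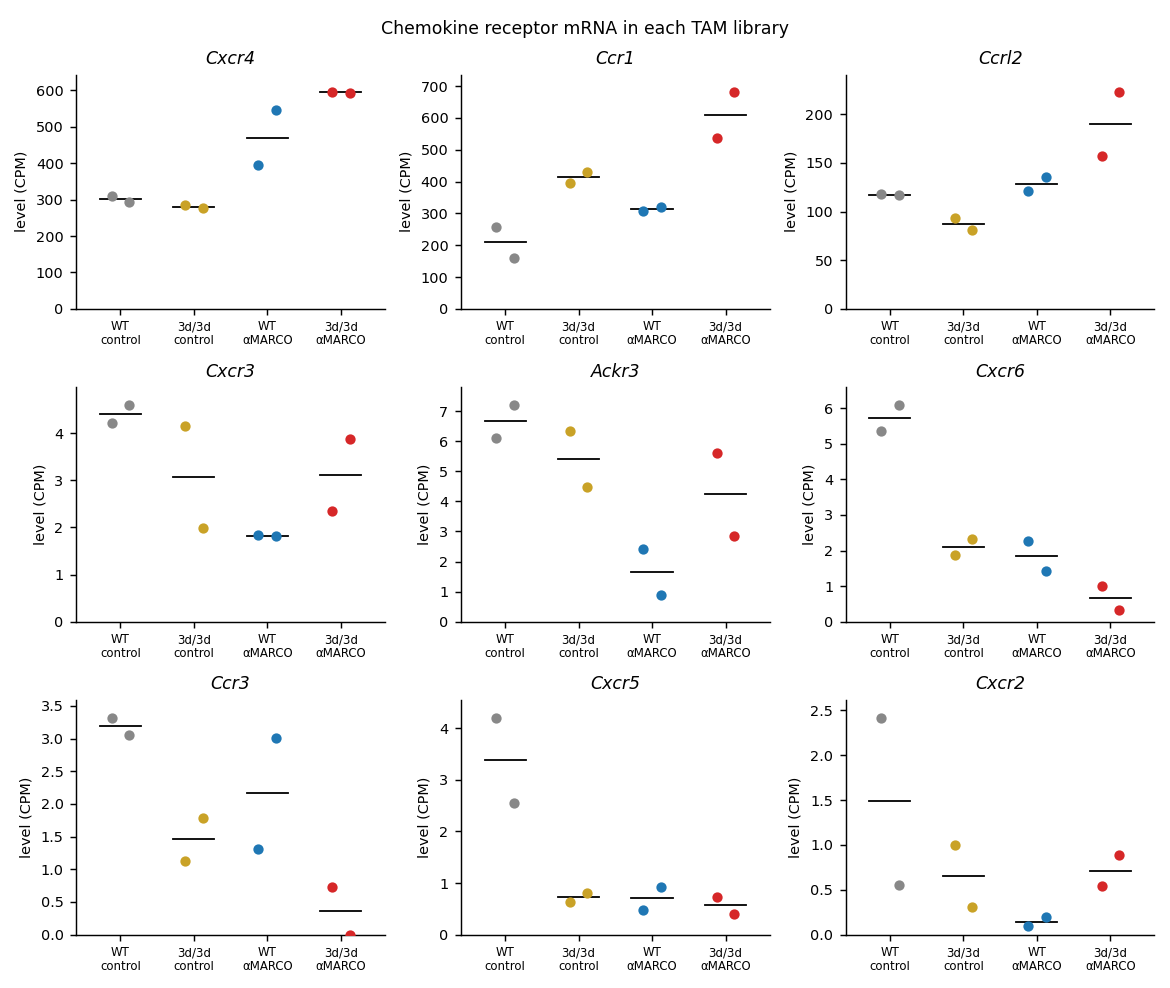
Level of each chemokine receptor in CPM (y axis, from 0) in the 4 groups (x axis). Points are libraries and bars are means of 2 libraries. *Cxcr4* was highest in the αMARCO groups, whereas *Cxcr5* and *Cxcr6* were highest in WT control, and *Ccr3* was at 0 in 1 *Unc93b1* 3d/3d αMARCO library.

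By the deposited GRCm38 coordinates, 5 of the 9 genes lie on chromosome 9. These are *Cxcr5* (chr9:44511787-44561877), *Ccrl2* (chr9:111054486-111057519), *Cxcr6* (chr9:123806475-123811760), *Ccr1* (chr9:123962124-123968692) and *Ccr3* (chr9:124021972-124031689). *Cxcr2* (chr1:74153989-74161246), *Ackr3* (chr1:90203980-90216751) and *Cxcr4* (chr1:128588199-128592293) lie on chromosome 1, and *Cxcr3* (chrX:101731535-101734269) on the X chromosome.

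Comparing genes per kilobase of transcript, 3 of the 9 receptors were abundant and 6 were scarce. *Cxcr4* ranked first, with a lowest, median and highest level over the 8 libraries of 153, 196 and 330 CPM per kb. *Ccr1* followed at 56.7, 126 and 241 CPM per kb, and *Ccrl2* at 31.1, 45.9 and 85.7 CPM per kb. The ranges of these neighbors overlapped, but the range of *Ccrl2* did not overlap that of the next gene, *Cxcr3*, at 1.05, 1.8 and 2.66 CPM per kb. *Ackr3* had a median of 1.5, *Cxcr6* of 1.08, *Ccr3* of 0.472, *Cxcr5* of 0.23 and *Cxcr2* of 0.18 CPM per kb, and every pair of neighbors among these scarce genes overlapped. *Cxcr2* was thus counted by as few as 2 reads in a library, whereas *Cxcr4* and *Ccr1* never fell below 2899.

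*Cxcr4* and *Ackr3*, the receptors that share CXCL12, changed in opposite directions with αMARCO in WT TAMs. The *Cxcr4* level was 311 and 293 CPM in WT control, and 396 and 545 CPM in WT αMARCO. It was 284 and 277 CPM in *Unc93b1* 3d/3d control, and 596 and 594 CPM in *Unc93b1* 3d/3d αMARCO. In both genotypes, every αMARCO library lay above every control library, and the controls of both genotypes lay close together. In WT the log2 fold change was 0.65 (SE 0.14, adjusted p = 0.0118, edgeR quasi-likelihood test), past the threshold used throughout (adjusted p no higher than 0.05, and 0.5 or more on the log2 scale in either direction). The call was lost without WT control replicate 1 (0.69, adjusted p = 0.088), without WT control replicate 2 (0.60, adjusted p = 0.113), and without WT αMARCO replicate 2 (0.40, adjusted p = 0.0345, under the fold threshold). Between control genotypes *Cxcr4* differed by 0.09 on the log2 scale (SE 0.09, 95% interval -0.12 to 0.30) and did not pass the test (adjusted p = 0.537). On the scale used here, both WT control libraries lay slightly above both *Unc93b1* 3d/3d control libraries.

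The *Ackr3* level was 6.11 and 7.21 CPM in WT control, and 2.43 and 0.887 CPM in WT αMARCO. It was 6.34 and 4.46 CPM in *Unc93b1* 3d/3d control, and 5.60 and 2.86 CPM in *Unc93b1* 3d/3d αMARCO. The WT αMARCO libraries, with 50 and 23 counts, were the lowest of the 8. *Unc93b1* 3d/3d control overlapped both WT control and *Unc93b1* 3d/3d αMARCO, which did not overlap each other. In WT, *Ackr3* fell with αMARCO by 2.03 on the log2 scale (SE 0.41, adjusted p = 0.00614), and the call held without each library in turn. Between control genotypes the difference was 0.29 (SE 0.27, adjusted p = 0.49). A list of 8 endothelial and stromal markers, all detected in every library, summed in WT to 368 and 360 CPM for the controls and 219 and 210 CPM after αMARCO, and in *Unc93b1* 3d/3d to 266 and 215 CPM for the controls and 237 and 142 CPM after αMARCO. Of these markers, 4 of 8 fell in WT αMARCO, among them the collagen gene *Col3a1* by 1.94 on the log2 scale, and none rose. Between the controls, 1 of the 8 was higher in WT and 2 were lower. The higher one, the adhesion gene *Pecam1*, carried more of the WT control sum than the other 7 markers together. Without it the list summed in WT to 166 and 162 CPM for the controls and 112 and 104 CPM after αMARCO, and in *Unc93b1* 3d/3d to 237 and 191 CPM for the controls and 209 and 116 CPM after αMARCO. The part of these markers in the *Ackr3* result was not tested. *Cxcl12* itself was near the floor, at between 1 and 18 counts in every library, and was tested in none of the comparisons.

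The sequence before the start sites is shown for *Cxcr4*, *Ackr3* and *Ccrl2*, since the first pair share a ligand and moved apart, and *Cxcr4* and *Ccrl2* were the receptors with the largest positive fold changes after αMARCO in *Unc93b1* 3d/3d TAMs. Each window holds the 250 bases upstream of the RefSeq start in GRCm38.p6, 5′ to 3′ along the gene, with matches to the motifs searched in capitals. The *Cxcr4* window lies at chr1:128592300-128592549 on the minus strand, the *Ackr3* window at chr1:90203730-90203979 on the plus strand, and the *Ccrl2* window at chr9:111057519-111057768 on the minus strand.
Cxcr4: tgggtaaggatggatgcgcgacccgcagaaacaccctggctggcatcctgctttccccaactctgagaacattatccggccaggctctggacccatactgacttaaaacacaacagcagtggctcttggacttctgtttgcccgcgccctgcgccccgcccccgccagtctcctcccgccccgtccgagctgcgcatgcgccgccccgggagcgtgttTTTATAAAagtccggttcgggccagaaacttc
Ackr3: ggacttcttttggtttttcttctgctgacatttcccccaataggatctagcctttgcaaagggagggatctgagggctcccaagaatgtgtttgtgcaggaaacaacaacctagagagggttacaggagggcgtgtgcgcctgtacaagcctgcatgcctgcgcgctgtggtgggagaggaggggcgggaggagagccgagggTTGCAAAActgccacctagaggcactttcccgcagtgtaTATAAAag
Ccrl2: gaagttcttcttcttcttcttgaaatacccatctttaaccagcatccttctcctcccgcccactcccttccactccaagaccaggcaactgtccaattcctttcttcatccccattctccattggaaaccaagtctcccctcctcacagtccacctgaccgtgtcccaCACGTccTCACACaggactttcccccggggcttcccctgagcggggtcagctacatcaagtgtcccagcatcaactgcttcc
In *Cxcr4* the capitals mark TATAAA, found on both strands in overlapping letters and starting 30 bases upstream on the strand of the gene. In *Ackr3* they mark a C/EBP match to TTGCNNAA starting 47 bases upstream and TATAAA starting 8 bases upstream. In *Ccrl2* they mark ACGTG, the core of the hypoxia response element, on the opposite strand and starting 82 bases upstream, and the T-box match TCACAC starting 75 bases upstream. TATAAA was found in 12.3% of all 32536 windows of this length, TTGCNNAA in 9.57%, ACGTG in 16.7% and TCACAC in 12.1%. Also searched on both strands were the AP-1 motif TGANTCA (6.73% of windows), TGACG of the cAMP response element (17.9%), the NF-kB motif (1.4%), the PU.1 motif GAGGAA (23.4%), the IRF motif (2.98%) and the CArG box (1.48%), none of which matched in these 3 windows. The GC content was 61.2% for *Cxcr4* and 54% for both *Ackr3* and *Ccrl2*, compared with a median of 52.4% over all windows.

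*Ccr1*, the receptor of CCL3, CCL5 and related chemokines on monocytes and macrophages, was more abundant in *Unc93b1* 3d/3d control TAMs than in their WT counterparts. Its level was 258 and 161 CPM in WT control, and 395 and 431 CPM in *Unc93b1* 3d/3d control. After αMARCO it was 308 and 321 CPM in WT, and 536 and 682 CPM in *Unc93b1* 3d/3d. The genotypes did not overlap under either treatment. In the control groups, *Ccr1* was lower in WT by a log2 fold change of -0.99 (SE 0.22, adjusted p = 0.0346). The call was lost without *Unc93b1* 3d/3d control replicate 1 (-1.05, adjusted p = 0.294) and without replicate 2 (-0.94, adjusted p = 0.277), with the direction kept. With αMARCO in WT, the log2 fold change of 0.59 (SE 0.24, adjusted p = 0.141) did not pass the test, but without WT control replicate 1, the higher of the WT control libraries, it was 0.97 (adjusted p = 3.26e-07), and without replicate 2 it was 0.29 (adjusted p = 0.0242), under the fold threshold.

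*Ccr3*, the eotaxin receptor of eosinophils, lies 215 kb from the start of *Cxcr6* in a block of chromosome 9 that also holds *Xcr1*, *Ccr1* and *Ccr2*. Its level was 3.32 and 3.05 CPM in WT control, and 1.13 and 1.78 CPM in *Unc93b1* 3d/3d control. It was 1.31 and 3.01 CPM in WT αMARCO. In the *Unc93b1* 3d/3d αMARCO libraries, 16 counts (0.722 CPM) and 0 counts were found. The WT control libraries lay above both *Unc93b1* 3d/3d groups, and the WT αMARCO libraries overlapped those of *Unc93b1* 3d/3d control. Neither the genotype difference in control (1.10, SE 0.37, adjusted p = 0.0685) nor the αMARCO change in WT (-0.53, SE 0.39, adjusted p = 0.318) passed the test. Of 4 eosinophil markers, 2 were found in the tables, and they summed to at most 0.203 CPM in any library, with *Prg2* at or under 3 counts throughout.

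*Cxcr2*, the receptor by which neutrophils follow CXCL1 and CXCL2, was the scarcest receptor. In WT it had 46 and 10 counts in the controls (2.42 and 0.554 CPM), and 2 and 5 counts after αMARCO (0.0971 and 0.193 CPM). In *Unc93b1* 3d/3d it had 16 and 6 counts in the controls (1 and 0.304 CPM), and 12 and 13 counts after αMARCO (0.542 and 0.884 CPM). Both WT αMARCO libraries were the lowest of the 8, and the other groups overlapped. The fall with αMARCO in WT was called, at a log2 fold change of -3.27 (SE 0.85, adjusted p = 0.0155). It rested on few reads, however, and was lost without WT control replicate 1 (-1.86, adjusted p = 0.242), without WT αMARCO replicate 1 (-2.90, adjusted p = 0.112) and without WT αMARCO replicate 2 (-3.85, adjusted p = 0.0676). Between control genotypes, *Cxcr2* differed by 1.20 (SE 0.82, adjusted p = 0.343), a value that became -0.21 without WT control replicate 1 (adjusted p = 0.924) and 1.91 without WT control replicate 2 (adjusted p = 0.0374).

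The neutrophil alarmin *S100a8* varied with *Cxcr2*. In WT it had 11.9 and 4.88 CPM in the controls and 1.36 and 1.97 CPM after αMARCO, and in *Unc93b1* 3d/3d 6.40 and 2.89 CPM in the controls and 1.71 and 5.71 CPM after αMARCO. The summed level of 10 neutrophil markers, most of it *Csf3r*, did not follow it. In WT the sum was 351 and 333 CPM for the controls and 386 and 385 CPM after αMARCO. In *Unc93b1* 3d/3d it was 272 and 236 CPM for the controls and 271 and 220 CPM after αMARCO. *Csf3r* alone had 262 and 279 CPM in WT control and 357 and 354 CPM in WT αMARCO. *Camp* was at or under 3 counts in every library, and *Ngp* and *Ltf* were at 0 in some. Of 6 markers tested in WT, 3 fell with αMARCO and none was called as higher. On the log2 scale *S100a8* fell by 2.32, *Ltf* by 4.09 and *Mmp9* by 0.71, whereas *Csf3r* lay at 0.40, under the fold threshold. The cells were sorted as Gr-1-, a gate that leaves out neutrophils, and the part of these markers in the *Cxcr2* result was not tested.

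The lymphocyte receptors *Cxcr3*, *Cxcr5* and *Cxcr6* were all lower with αMARCO in WT TAMs. *Cxcr5*, the CXCL13 receptor of B cells and follicular T cells, had 4.21 and 2.55 CPM in WT control and 0.628 and 0.812 CPM in *Unc93b1* 3d/3d control. After αMARCO it had 0.485 and 0.926 CPM in WT, and 0.722 and 0.408 CPM in *Unc93b1* 3d/3d. Both WT control libraries lay above the other 6, which overlapped. Among the controls, *Cxcr5* was higher in WT by a log2 fold change of 2.20 (SE 0.44, adjusted p = 0.00957), and fell with αMARCO in WT by 2.22 on the log2 scale (SE 0.44, adjusted p = 0.00424). Both calls held without each library in turn. The gene shares 110 of its 3332 exon bases with *Bcl9l* on the opposite strand, and whether counting used strand was not given in the sources used here.

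*Cxcr6*, the CXCL16 receptor of T and NKT cells, had 5.37 and 6.10 CPM in WT control, and 1.88 and 2.33 CPM in *Unc93b1* 3d/3d control. It had 2.28 and 1.43 CPM in WT αMARCO, and 0.993 and 0.340 CPM in *Unc93b1* 3d/3d αMARCO. WT control was again highest, and the *Unc93b1* 3d/3d αMARCO libraries, with 22 and 5 counts, were lowest. *Cxcr6* was higher in WT control than in *Unc93b1* 3d/3d control by 1.42 (SE 0.30, adjusted p = 0.0115), and fell with αMARCO in WT by 1.63 on the log2 scale (SE 0.30, adjusted p = 0.00302). Both calls held without each library in turn. The gene lies within *Fyco1*, which is on the opposite strand and shares 0 exon bases with it. *Fyco1* was at 48.6 and 54 CPM in WT control and at 53.2 and 53 in *Unc93b1* 3d/3d control.

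*Cxcr3*, the receptor of the interferon-induced chemokines CXCL9, CXCL10 and CXCL11 on T and NK cells, had 4.21 and 4.60 CPM in WT control, and 4.14 and 1.98 CPM in *Unc93b1* 3d/3d control. It had 1.84 and 1.81 CPM in WT αMARCO, and 2.35 and 3.88 CPM in *Unc93b1* 3d/3d αMARCO. Both WT αMARCO libraries were the lowest of the 8. In WT the log2 fold change with αMARCO was -1.26 (SE 0.28, adjusted p = 0.00751), and it missed the threshold without WT αMARCO replicate 1 (-1.26, adjusted p = 0.0553) and without replicate 2 (-1.25, adjusted p = 0.0538). Between control genotypes the difference was 0.52 (SE 0.37, adjusted p = 0.363).

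T cell markers moved with *Cxcr5* and *Cxcr6* between the controls and with αMARCO in WT, and with *Cxcr3* in the latter alone. All 12 of 12 T cell markers were higher in WT among the controls, with a median log2 fold change of 2.78, and all 12 fell with αMARCO in WT, with a median of -3.16. The NK cell list of 7 genes summed to 84 and 67.6 CPM in WT control and to between 37.8 and 59 in the other libraries, and 3 of its 7 genes fell with αMARCO in WT. *Klrk1*, an activating receptor gene of NK cells that T cells can also express, carried most of that sum and did not pass the test (log2 fold change with αMARCO in WT -0.20, adjusted p = 0.212). The other 6 genes summed to 32.7 and 27.2 CPM in WT control and to between 2.86 and 11.9 CPM in the other libraries. *Cxcr3* was not ordered as the T cell list was. Its level in *Unc93b1* 3d/3d αMARCO, where T cell markers were lowest, was above that in WT αMARCO. The cells were sorted as TAMs, so these sums do not count the T and NK cells of the tumors. By flow cytometry of the tumors, the study reported more CD8+ T cells and NK cells with αMARCO in WT. The part of the T and NK cell markers in the receptor results was not tested.

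**Figure D2:**
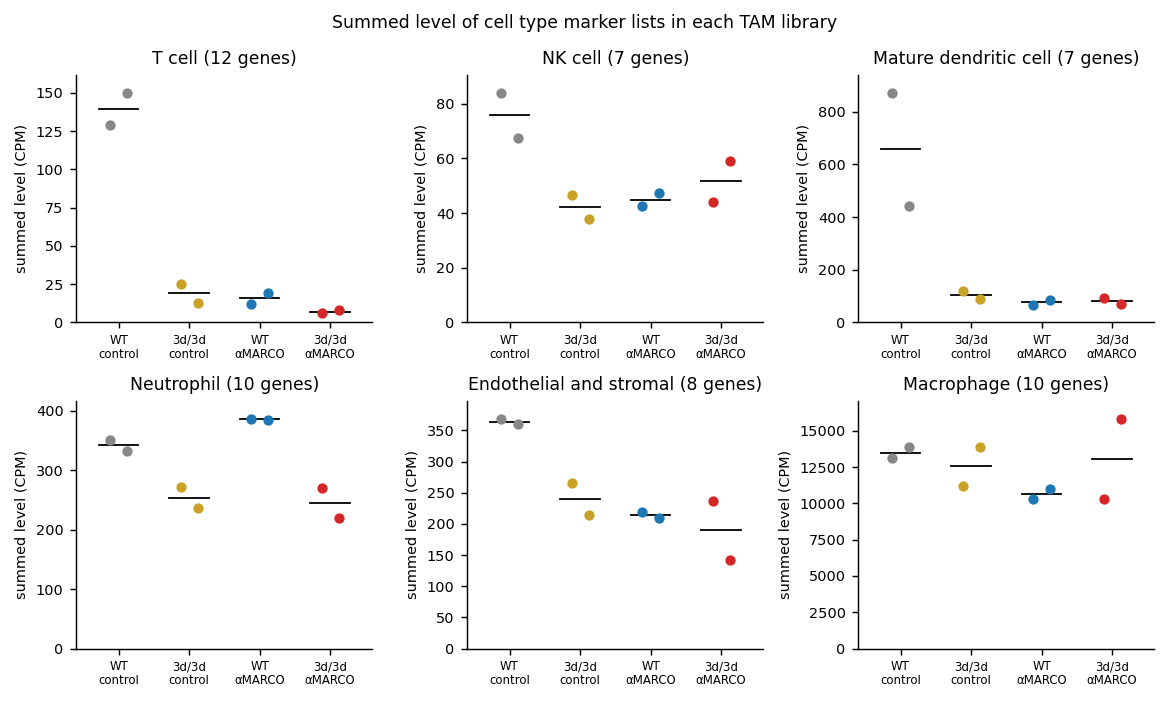
Summed level in CPM (y axis, from 0) of 6 cell type marker lists in the 4 groups (x axis). Points are libraries and bars are means of 2 libraries. T cell and mature dendritic cell markers were highest in both WT control libraries, whereas the neutrophil sum, most of it *Csf3r*, was highest in WT αMARCO.

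*Ccrl2*, which presents chemerin to neighboring cells, had the smallest p-value of the 9 receptors for a difference in αMARCO response between the genotypes. Its level was 118 and 117 CPM in WT control, and 93.5 and 80.8 CPM in *Unc93b1* 3d/3d control. After αMARCO it was 121 and 135 CPM in WT, and 157 and 223 CPM in *Unc93b1* 3d/3d. WT lay above *Unc93b1* 3d/3d in the control groups and below it after αMARCO, without overlap in either. Of the 9 receptors, *Ccrl2*, *Cxcr4* and *Cxcr3* had this order, as did 6.76% of all 16620 genes, and *Cxcr3* had it with TMM factors alone and *Cxcr4* not with library totals as the scale. In the control groups the log2 fold change was 0.41 (SE 0.10, adjusted p = 0.0231), under the fold threshold. With αMARCO in WT it was 0.14 (SE 0.08, 95% interval -0.04 to 0.32). The chemerin gene *Rarres2* was at or under 5 counts in each library, and *Cmklr1*, the signaling receptor of chemerin, rose with αMARCO in WT by 0.53 (adjusted p = 0.00149).

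Among the 9 receptors, 3 were called between WT and *Unc93b1* 3d/3d control TAMs, *Cxcr5* and *Cxcr6* as higher in WT and *Ccr1* as lower. Of all 15600 genes tested, 13% were called, 6.58% as higher and 6.4% as lower. The median log2 fold change was 0.52 for the receptors and -0.00 for all genes. With αMARCO in WT, 6 were called, *Cxcr4* as higher and *Cxcr2*, *Cxcr3*, *Cxcr5*, *Cxcr6* and *Ackr3* as lower. Of all 15630 genes, 20.7% were called, 8.91% as higher and 11.8% as lower, and the medians were -1.26 for the receptors and -0.01 for all genes. The share of counts from mitochondrial genes also differed, at 1.07 and 1.03% for the WT controls against 2.37 and 2.74% after αMARCO, and its part in these results was not tested. In *Unc93b1* 3d/3d this share was 1.25 and 1.18% for the controls and 2.06 and 1.39% after αMARCO. These comparisons share the WT control libraries. When all 8 libraries were fitted in a single model, which takes in the spread of the *Unc93b1* 3d/3d αMARCO libraries, 0 receptors were called in both, where 2.19% and 0.987% of genes were called; the adjusted p was then 0.0894 for *Ccr1*, 0.0886 for *Cxcr5* and 0.185 for *Cxcr6* between genotypes. For αMARCO in WT it was 0.134 for *Cxcr2*, 0.169 for *Cxcr3*, 0.123 for *Cxcr4*, 0.0891 for *Cxcr5*, 0.123 for *Cxcr6* and 0.101 for *Ackr3*, with fold changes close to those above.

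**Figure D3:**
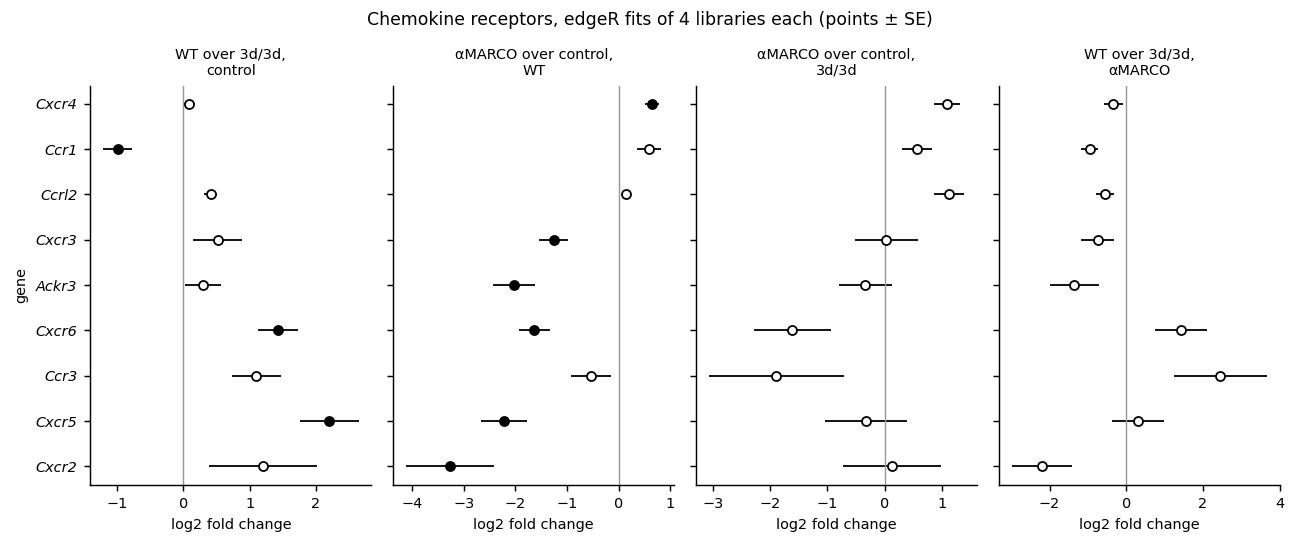
Log2 fold change (x axis) of the 9 receptors (y axis) in 4 comparisons, with SE as bars; filled points passed both thresholds. The comparisons with *Unc93b1* 3d/3d αMARCO hold open points only, although *Cxcr4* and *Ccrl2* lay at 1.09 and 1.13 for αMARCO in *Unc93b1* 3d/3d.

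In *Unc93b1* 3d/3d TAMs, *Cxcr4* and *Ccrl2* had the largest positive log2 fold changes with αMARCO among the 9 receptors, at 1.09 (SE 0.23, unadjusted p = 0.00319) and 1.13 (SE 0.26, unadjusted p = 0.00522), both with an adjusted p of 0.823. The edgeR test called 0 receptors and 0% of 15428 genes in this comparison, where 744 genes had an unadjusted p under 0.05 and DESeq2 called 0.389%. With DESeq2, *Cxcr4* passed at 1.07 (adjusted p = 0.0173). Without αMARCO replicate 2, the genes called came to 3.41%, and the receptors to 2, *Cxcr4* at 1.09 (adjusted p = 1.44e-08) and *Ccrl2* at 0.85 (adjusted p = 2.44e-06). Without replicate 1, 34.1% of genes and 5 receptors were called, *Ccr1*, *Cxcr4* and *Ccrl2* as higher and *Ccr3* and *Cxcr6* as lower, *Ccr3* resting on the library with 0 counts. *Cxcr4* and *Ccrl2* were called in both cases. *Cxcr2*, *Cxcr3*, *Cxcr5* and *Ackr3* had log2 fold changes of 0.13, 0.03, -0.33 and -0.34, with SE of 0.46 to 0.85. The median log2 fold change was 0.03 both for the receptors and for all genes.

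Between genotypes after αMARCO, edgeR again called 0 receptors and 0% of 15722 genes, with 1076 genes at an unadjusted p under 0.05. *Ccr1* was at -0.95 (SE 0.22, adjusted p = 0.507), a value near that in the control groups. It was called with DESeq2 (-0.94, adjusted p = 0.0313), as were 1.37% of genes, and without either *Unc93b1* 3d/3d αMARCO library: without replicate 1 it was -1.11 (38.6% of genes called) and without replicate 2 it was -0.77 (7.45% of genes called). *Ackr3* was at -1.36 (SE 0.64), and was called without replicate 2 alone (-1.79, adjusted p = 0.0339). Without replicate 1, *Ccr3*, *Cxcr2*, *Cxcr3*, *Cxcr6* and *Ccrl2* were called along with *Ccr1*. The median log2 fold change was -0.56 for the receptors and -0.03 for all genes.

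The difference of the αMARCO effects, WT minus *Unc93b1* 3d/3d, was tested in the model of 8 libraries. No receptor passed, and 0% of 16620 genes were called by edgeR, with 2549 genes at an unadjusted p under 0.05 and 1.25% called by DESeq2, which called 0 receptors. The difference was -0.99 for *Ccrl2* (SE 0.27, unadjusted p = 0.00574, adjusted p = 0.318). It was -3.40 for *Cxcr2* (SE 1.32), -1.92 for *Cxcr5* (SE 0.78) and -1.68 for *Ackr3* (SE 0.71), with adjusted p-values of 0.318, 0.318 and 0.324. For *Ccr1* (0.03, SE 0.33) and *Cxcr6* (-0.04, SE 0.80) it was near 0, although the interval of *Cxcr6* was wide. *Ccrl2* was called without *Unc93b1* 3d/3d αMARCO replicate 1 (-1.23, adjusted p = 1.23e-05, with 36.4% of genes called) and without replicate 2 (-0.73, adjusted p = 0.0165, with 3.45% of genes called). *Cxcr2* (-3.74), *Cxcr3* (-1.62) and *Ccr3* were called without replicate 1 alone. The median difference was -0.99 for the receptors and -0.04 for all genes.

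Several ligands of these receptors were made by the same TAM samples. Of 19 ligand genes, 15 were tested between control genotypes, of which 5 were higher in WT and 4 lower, with a median log2 fold change of 0.30. Among all genes tested, 6.58% were called as higher and 6.4% as lower. The *Ccr1* ligands were split. *Ccl5* was higher in WT by 2.54 (SE 0.19) and *Ccl3* by 0.90 (SE 0.13), whereas *Ccl6* was lower at -0.87 (SE 0.15), and *Ccl7* and *Ccl9* both at -0.52 (SE 0.11). Among the *Cxcr2* ligands, the neutrophil attractants *Cxcl1* and *Cxcl2* were higher at 1.19 (SE 0.19) and 0.62 (SE 0.14), and *Ppbp*, the platelet basic protein gene, was lower at -2.41 (SE 0.18). *Cxcl13*, the ligand of CXCR5, had 3 and 1.55 CPM in WT control, 0.776 and 0.694 in WT αMARCO, and 0 counts in all 4 *Unc93b1* 3d/3d libraries, which allows up to 3 counts in each.

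With αMARCO in WT, 16 ligands were tested, of which 3 rose and 4 fell, with a median of 0.25. Among all genes tested, 8.91% were called as higher and 11.8% as lower. *Cxcl11*, which binds both CXCR3 and ACKR3, rose by 1.03 (SE 0.14), from 12.3 and 12.2 CPM to 22.1 and 27.5 CPM, while both of its receptors fell. *Cxcl16*, the ligand of CXCR6, rose by 0.50 (SE 0.09), from 432 and 415 CPM to 572 and 622 CPM, while *Cxcr6* fell. *Ppbp* rose by 0.98 (SE 0.17). *Ccl5* fell by 1.5 on the log2 scale (SE 0.08), *Cxcl1* by 0.90 (SE 0.14), *Cxcl3* by 0.91 (SE 0.14) and *Cxcl13* by 1.62 (SE 0.47). In *Unc93b1* 3d/3d TAMs no ligand was called, where 0% of all 15428 genes were called. *Cxcl11* and *Cxcl16* had log2 fold changes of 1.14 (SE 0.24) and 0.65 (SE 0.29) there. No ligand was called between genotypes after αMARCO or for the difference of the effects. *Cxcl9*, a ligand of CXCR3 that the study reported as higher in WT control TAMs, was not called here by edgeR in any comparison. The study used DESeq2, whose result for *Cxcl9* is not given here. Its level was 122 and 167 CPM in WT control, and 15.9 and 49.9 CPM in *Unc93b1* 3d/3d control. After αMARCO it was 121 and 108 CPM in WT, and 14.3 and 21 CPM in *Unc93b1* 3d/3d, so the genotypes did not overlap under either treatment. By the edgeR test it lay 2.11 higher in WT between the controls (SE 0.71, adjusted p = 0.187). After αMARCO it lay 2.71 higher in WT (SE 0.26, adjusted p = 0.17).

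**Figure D4:**
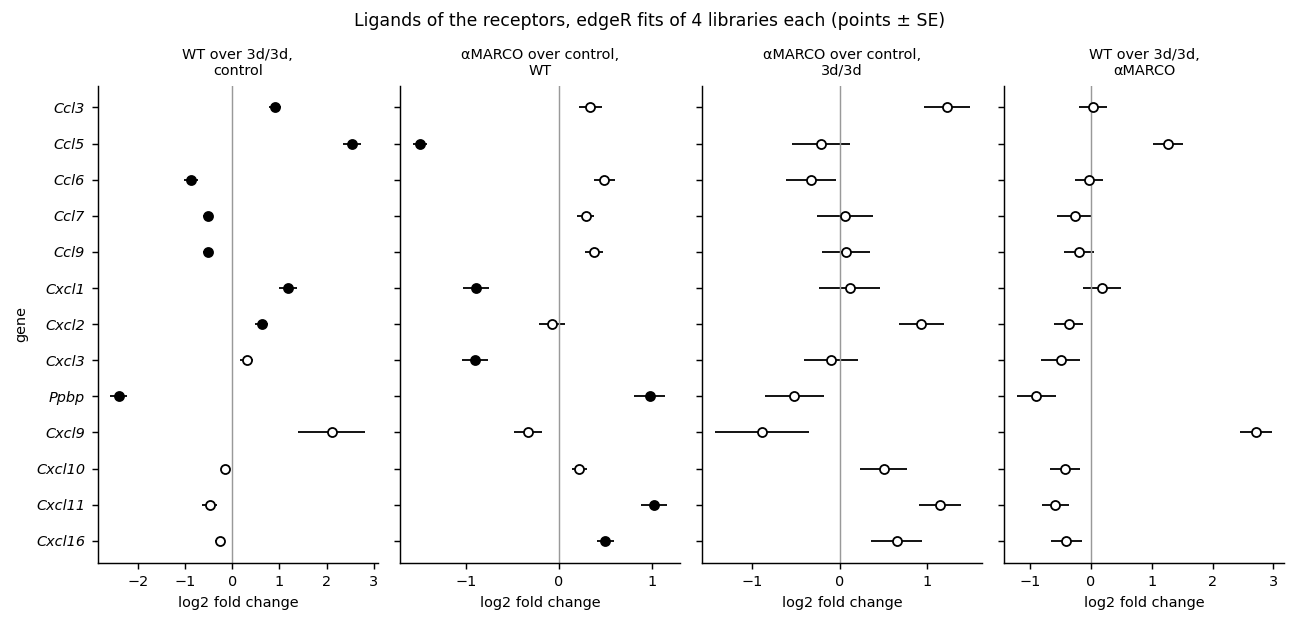
Log2 fold change (x axis) of 13 ligand genes (y axis) in 4 comparisons, with SE as bars; filled points passed both thresholds. Among the controls *Ccl5* was 2.54 higher in WT, and it fell by 1.5 with αMARCO in WT.

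Of 17 other chemokine receptor genes, 11 were tested between control genotypes, where 3 were higher in WT and 3 lower, and 11 with αMARCO in WT, where 2 rose and 5 fell. *Ccr7*, the receptor of mature dendritic cells, was 3.59 higher in WT control (SE 0.44) and fell by 3.60 with αMARCO (SE 0.50), and *Ccr8* was 2.32 higher and fell by 3.44. *Ccr2*, a monocyte receptor of the same chromosome 9 block as *Ccr1*, was lower in WT control at -0.58 (SE 0.16), as *Ccr1* was. Of 26 genes of receptor signaling, 4 were higher in WT control and 1 lower, with a median of 0.19, and 3 rose and 2 fell with αMARCO in WT, with a median of -0.04. Of all genes tested, 6.58% were called higher and 6.4% lower in WT control, and 8.91% rose and 11.8% fell with αMARCO in WT. *Rgs16*, which shuts off Gi signaling, was 2.0 higher in WT control (SE 0.30) and fell by 3.18 with αMARCO (SE 0.23). *Grk3*, a kinase that desensitizes receptors, was 1.0 higher in WT control (SE 0.10), and *Arrb2*, a β-arrestin, rose with αMARCO by 0.56 (SE 0.09).

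The genes whose profile over the 8 libraries lay nearest were found for each receptor that was called, by the root mean square difference of centered log2 CPM over 16620 genes. For *Cxcr4* they included *Tnfsf9*, the 4-1BB ligand gene, at 0.15, behind the predicted genes *Gm17066* at 0.12 and *Gm6377* at 0.13. For *Ccr1* they were *Gm5127* and the myeloid activating receptor *Clec5a*, both at 0.17, and *Gcat* at 0.18. For *Cxcr3* they were *Phlda3* at 0.10, *Gm13342* at 0.11 and *Gm4353* at 0.19. For *Ackr3* they were *Plod2* at 0.24, *Rnf207* at 0.27 and *Serpinh1* at 0.30, of which *Plod2* and *Serpinh1* act in collagen synthesis. For *Cxcr5* they were *Fscn1*, *Gimap5* and *Serpinb9*, all at 0.32, and *Fscn1* is a mature dendritic cell marker. For *Cxcr6* they were *Zdhhc15* at 0.26, *AC166491.1* at 0.31 and *Trib2* at 0.32, and for *Cxcr2* they were *Cdh1* at 0.37, *S100a8* at 0.45 and *CT025678.1* at 0.48. These distances are descriptions and share the libraries and their depth. *Ccrl2* fell outside this rule, and after its values were seen its neighbors were found to be *Fos* at 0.08, *Dusp1* at 0.12 and *Dok3* at 0.12.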

How the data were processed

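TAMs of 8 mouse tumor samples were profiled by poly(A) RNA-seq. Per the study's methods and the submitters' processing notes, the authors trimmed reads with fastp, aligned them to GRCm38 with HISAT2 2.0.5, counted reads per gene with featureCounts 1.5.0 and tested with DESeq2 1.40.2. The strand setting and annotation release were not given in the sources used here. The authors deposited raw counts, normalized values, FPKM and their own fold changes and p-values in 3 tables of 4 libraries each. The raw counts as deposited by the authors were used; the normalized values, FPKM values and test results were not.

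The tables were joined by gene identifier. The 95230 counts present in 2 tables were identical, and 11598 gene and library pairs missing from a table were set to 0, since a gene missing from 1 table had at most 1 count for the same libraries in another. CPM used TMM factors over 8 libraries. Each comparison of 2 groups was fitted over all genes with edgeR 4.0.16 (R 4.3.3), by the quasi-likelihood test with TMM, filterByExpr and robust dispersions, and Benjamini-Hochberg adjustment; the difference of effects used all 8 libraries. A gene was called at an adjusted p no higher than 0.05 and a change of 0.5 or more in either direction on the log2 scale, as in the study. Alternatives were DESeq2 1.42.0, its size factors, other filters and fold thresholds, a replicate block, a model of 8 libraries, and leaving out each library. Scripts were tested on simulated data. All 9 receptors passed the filter on low counts in every comparison. Positions are GRCm38, and 95.5% of 26457 gene identifiers had the same position in GENCODE M21. Promoter windows came from RefSeq, which held 8 of the 9 receptors.

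Groups were taken from the sample titles. With 2 libraries per group, p-values measure the spread between pools or samples. Receptors, ligand lists and markers were chosen with earlier results of these data known. All 9 receptors are named. Every ligand called in at least 1 comparison is named, with some of the others, and up to 4 other receptors.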

Additional observations from a re-analysis of the deposited data

Results flagged for a closer look

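For 3 receptors, all WT libraries lay above all *Unc93b1* 3d/3d libraries in the control groups and below them after αMARCO, an order that 6.76% of 16620 genes (1124) had. The difference of the αMARCO effects, WT minus *Unc93b1* 3d/3d, was -0.99 on the log2 scale for *Ccrl2*, -0.45 for *Cxcr4* and -1.29 for *Cxcr3*. It did not pass the edgeR test for any of them (adjusted p = 0.318, 0.384 and 0.335). The order of *Ccrl2* was found with TMM factors, with DESeq2 size factors and with library totals. That of *Cxcr4* was not found with library totals, and that of *Cxcr3*, which rested on 4.21 against 4.14 CPM, was found with TMM factors alone.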

How the results depend on the processing

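With 2 libraries per group, the spread is known poorly, and the 8-library model moved most calls: it called 0 receptors and 364 genes between control genotypes, 0 and 164 for αMARCO in WT, 1 gene for αMARCO in *Unc93b1* 3d/3d and 108 between genotypes after αMARCO. At an absolute log2 fold change of 1, 951 genes were called between control genotypes and 1366 for αMARCO in WT, where 5487 were called with no fold threshold. DESeq2 called 1 receptor and 60 genes for αMARCO in *Unc93b1* 3d/3d, 1 receptor and 215 genes between genotypes after αMARCO, and 208 genes for the difference of effects. Without the filter on low counts, these came to 2 receptors and 174 genes, 107 genes and 152 genes. Leaving out each library gave 2 to 4 receptors and 1493 to 2232 genes between control genotypes, 3 to 5 receptors and 1940 to 3951 genes for αMARCO in WT, 0 to 5 receptors and 1 to 5500 genes for αMARCO in *Unc93b1* 3d/3d, 0 to 6 receptors and 17 to 6366 genes between genotypes after αMARCO, and 0 to 4 receptors and 0 to 6440 genes for the difference. The arm left with 1 library is assumed to vary like the other. The cause was not tested.

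Whether libraries with the same replicate number were paired was not settled here. Deviations of same-numbered libraries from their group means correlated at -0.08 to 0.14, which cannot decide it with 2 libraries per group. With the replicate block, 3, 6, 0, 0 and 0 receptors were called in the 5 comparisons, as without it, and 2395, 3086, 5, 97 and 0 genes.

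Log2 fold changes that changed sign when 1 library was left out ran from -0.21 to 2.26 for *Cxcr2* between control genotypes. For αMARCO in *Unc93b1* 3d/3d they ran from -0.49 to 1.21 for *Cxcr2*, -0.40 to 0.66 for *Cxcr3* and -0.90 to 0.06 for *Ackr3*. Between genotypes after αMARCO *Cxcr5* ran from -0.23 to 0.81. For the difference of effects *Ccr1* ran from -0.28 to 0.40 and *Cxcr6* from -0.56 to 0.98. With at least 10 counts in every library, *Cxcr3* was at -0.01 for αMARCO in *Unc93b1* 3d/3d, and with DESeq2 the difference of effects for *Cxcr6* was 0.00. Of the other fold changes without left-out libraries, 224 kept direction and call, 9 lost a call and 6 gained one.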
